A study of Mus musculus with 13 samples.

Results

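Forestomach masses were compared with the esophagus in Cre/p120 flox/flox mice, and each tissue difference was set beside the normal difference between forestomach and esophagus. The 7 arrays of Cre/p120 flox/flox epithelium in a series of 13 were used for the comparison. They were 3 forestomach masses, from animals 412, 426 and 510, and 4 esophagi, from animals 193, 307, 313 and 335. No 2 of these arrays came from the same animal. The normal difference came from the other 6 arrays, the forestomach and the esophagus of control animals 214, 216 and 217, labelled Cre/p120 +/+. All 13 samples carried L2-Cre, a recombinase driven by a promoter that is active in squamous epithelium, on a mixed C57Bl/6 and 129 background. Epithelium had been freed with dispase and its RNA extracted with Trizol, and levels were read on an Affymetrix gene array. The forestomach of flox/flox mice was sampled only as masses, so the effect of the genotype and that of forming a mass cannot be told apart. Within each of the 4 groups every array came from a different animal, so the p-values rest on the spread between animals within groups. The main fit did not use the pairing of the control tissues by animal. Ages were not given in the sources used here.

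The esophagus and the forestomach of the mouse are both lined by a keratinising stratified squamous epithelium. Its basal cells divide on a basement membrane, and their daughters rise, exchange basal for suprabasal keratins and build a cornified envelope. p120-catenin, the product of Ctnnd1, binds the juxtamembrane part of classical cadherins and holds them at adherens junctions. Regional transcription factors give each stretch of the foregut its own set of keratins, secreted proteins and enzymes.

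Levels are log2 intensities throughout, and a difference is that between 2 group means on this scale, given with its standard error (SE). A gene was called at a limma p, adjusted by the Benjamini-Hochberg method, under 0.05. A normal difference was counted as kept where it was called in both genotypes with the same sign, and as reversed where the signs were opposite. It was counted as erased where the flox/flox difference was not called and the change of the difference, flox/flox minus normal, was called towards 0. A flox/flox difference was counted as gained where the normal one was not called and the change was called in its direction. The remaining normal differences, not called in flox/flox and with no call on the change, were unresolved. The change shares the control arrays with the normal difference, so a gene with a large normal difference leans towards a change. The flox/flox and the normal difference share no array.

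Upstream sequences are shown for 5 genes that stand for the outcomes described below. Krt10 and Pax9 kept a forestomach-high and an esophagus-high difference, Cwh43 lost its difference, Tagln2 reversed it, and Cyp4b1 gained one. Each is the 250 bases before the annotated start, 5′ to 3′ on the gene's strand, from RefSeq in build GRCm38.p6. Krt10 is at chr11:99389365-99389614 on the minus strand, Pax9 at chr12:56695221-56695470 on the plus strand and Cwh43 at chr5:73405828-73406077 on the plus strand. Tagln2 is at chr1:172499996-172500245 on the plus strand and Cyp4b1 at chr4:115647722-115647971 on the minus strand. Capitals mark a TATAAA or a TGANTCA match, the latter being the AP-1 consensus, on either strand.
Krt10: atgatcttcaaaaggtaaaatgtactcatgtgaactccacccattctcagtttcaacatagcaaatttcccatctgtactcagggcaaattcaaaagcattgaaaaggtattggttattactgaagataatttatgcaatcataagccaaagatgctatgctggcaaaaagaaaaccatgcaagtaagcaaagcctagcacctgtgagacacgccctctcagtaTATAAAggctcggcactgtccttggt
Pax9: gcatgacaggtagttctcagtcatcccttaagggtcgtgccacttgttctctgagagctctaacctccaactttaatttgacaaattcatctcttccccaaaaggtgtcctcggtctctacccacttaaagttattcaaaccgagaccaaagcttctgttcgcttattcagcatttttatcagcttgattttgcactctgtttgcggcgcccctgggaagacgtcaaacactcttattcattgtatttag
Cwh43: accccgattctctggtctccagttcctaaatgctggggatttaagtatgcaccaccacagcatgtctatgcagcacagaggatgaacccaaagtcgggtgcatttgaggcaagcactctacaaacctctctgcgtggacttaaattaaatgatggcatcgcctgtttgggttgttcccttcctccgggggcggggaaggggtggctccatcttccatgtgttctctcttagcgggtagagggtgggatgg
Tagln2: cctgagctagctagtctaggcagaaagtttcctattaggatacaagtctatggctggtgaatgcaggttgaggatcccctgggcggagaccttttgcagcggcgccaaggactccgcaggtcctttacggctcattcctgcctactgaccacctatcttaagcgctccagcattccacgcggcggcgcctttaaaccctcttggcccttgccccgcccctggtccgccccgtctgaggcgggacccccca
Cyp4b1: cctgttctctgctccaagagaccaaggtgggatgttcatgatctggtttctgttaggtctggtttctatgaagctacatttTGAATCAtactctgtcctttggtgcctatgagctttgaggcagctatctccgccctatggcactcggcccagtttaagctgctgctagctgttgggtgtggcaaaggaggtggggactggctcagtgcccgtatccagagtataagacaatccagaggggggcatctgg
The TATAAA of Krt10 begins at position -26 from the start and the AP-1 match of Cyp4b1 at position -169, and the windows of Pax9, Cwh43 and Tagln2 hold neither run of letters. Of the tested genes, 12509 had a promoter in the table, and 6.3% of these held the AP-1 match and 9.3% TATAAA. Among the kept forestomach-high genes 82 of 108 had a promoter, with AP-1 in 12.2% and TATAAA in 15.9%. Among the kept esophagus-high genes 186 of 233 had one, with 7.5% and 9.7%. Over all 32851 promoters of the table the shares were 6.7% and 12.4%. A match describes the letters only.

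The labels were first set against the levels. Ctnnd1, which the floxed alleles target, stood at 9.66, 9.91 and 9.51 in masses 412, 426 and 510 and at 10.13, 9.95, 10.08 and 10.04 in esophagi 193, 307, 313 and 335. Control levels were 10.33, 10.50 and 10.21 in the esophagus and 10.40, 10.14 and 10.23 in the forestomach. Every flox/flox array was thus below every control array. The mass and the flox/flox esophagus differed by -0.36 (SE 0.11, adjusted p = 0.081), which was not called. Which exons were deleted and where the probes lie was not given, and the levels therefore check no deletion.

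Squamous markers were bright in both groups. Krt5, a keratin of basal cells, stood at 13.01, 12.51 and 12.59 in the masses and between 12.64 and 12.89 in the flox/flox esophagi, and differed by -0.07 (SE 0.12, adjusted p = 0.715). Krt14, its partner, lay between 12.43 and 13.51 in the masses and between 11.75 and 12.62 in the esophagi, and Trp63, the basal transcription factor p63, between 9.86 and 10.28 and between 9.93 and 10.42. Neither was called (adjusted p = 0.0652 and 0.891). Krt4 and Krt13, the suprabasal pair of the esophagus, remained among the brightest genes in the masses, but lower than in the esophagus. Krt4 was 12.73, 13.33 and 13.16 in the masses against 13.80, 13.95, 13.93 and 13.88, a difference of -0.81 (SE 0.12, adjusted p = 0.00302). Krt13 differed by -0.40 (SE 0.09, adjusted p = 0.0209), and that call was lost without esophagus 307 (0.0544) or 313 (0.0524). E-cadherin (Cdh1) was 11.70, 11.40 and 11.20 in the masses and 11.10 to 11.19 in the esophagi, and the difference of 0.30 (SE 0.11, adjusted p = 0.113) was not called. P-cadherin (Cdh3) differed by -0.30 (SE 0.36, adjusted p = 0.607).

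Other cells were present unevenly, and their markers are given here because they touch what follows. The mean of 24 skeletal muscle genes was 7.87 in flox/flox esophagus 307, 9.28 in flox/flox esophagus 335 and 8.10 in control esophagus 214, and 5.63 to 6.2 on the other 10 arrays. Below, arrays with muscle RNA are these esophagi, named for skeletal muscle only. The mean of 10 smooth muscle genes was 9.36 in control esophagus 214 and 9.16 and 7.97 in esophagi 307 and 335. It was 7.97, 10.09 and 6.70 in masses 412, 426 and 510, 7.67 in control forestomach 214 and 5.82 to 6.08 on the others. Leaving out the named esophagi thus kept the smooth muscle RNA of the masses. The mean of 20 fibroblast and matrix genes was 8.45 and 8.92 in esophagi 307 and 335, 6.30 and 6.22 in esophagi 193 and 313, and 8.09, 8.48 and 6.94 in masses 412, 426 and 510. The mean of 16 glandular stomach genes was 10.25 in mass 426, 6.29 and 6.03 in masses 412 and 510, and 5.64 to 5.81 in the flox/flox esophagi. The neutrophil list stood at 7.78, 6.79 and 7.25 in the masses and between 5.41 and 6.95 in the flox/flox esophagi. The T and NK cell list reached 7.34 in esophagus 193 and lay between 5.82 and 6.37 on the other 6 flox/flox arrays. In bulk epithelium, fewer cells of a type and less RNA per cell cannot be told apart. The masses also varied more among themselves, the median SD per gene being 0.248 against 0.148 in the flox/flox esophagi and correlations between arrays of 0.918 to 0.941.

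**Figure D1:**
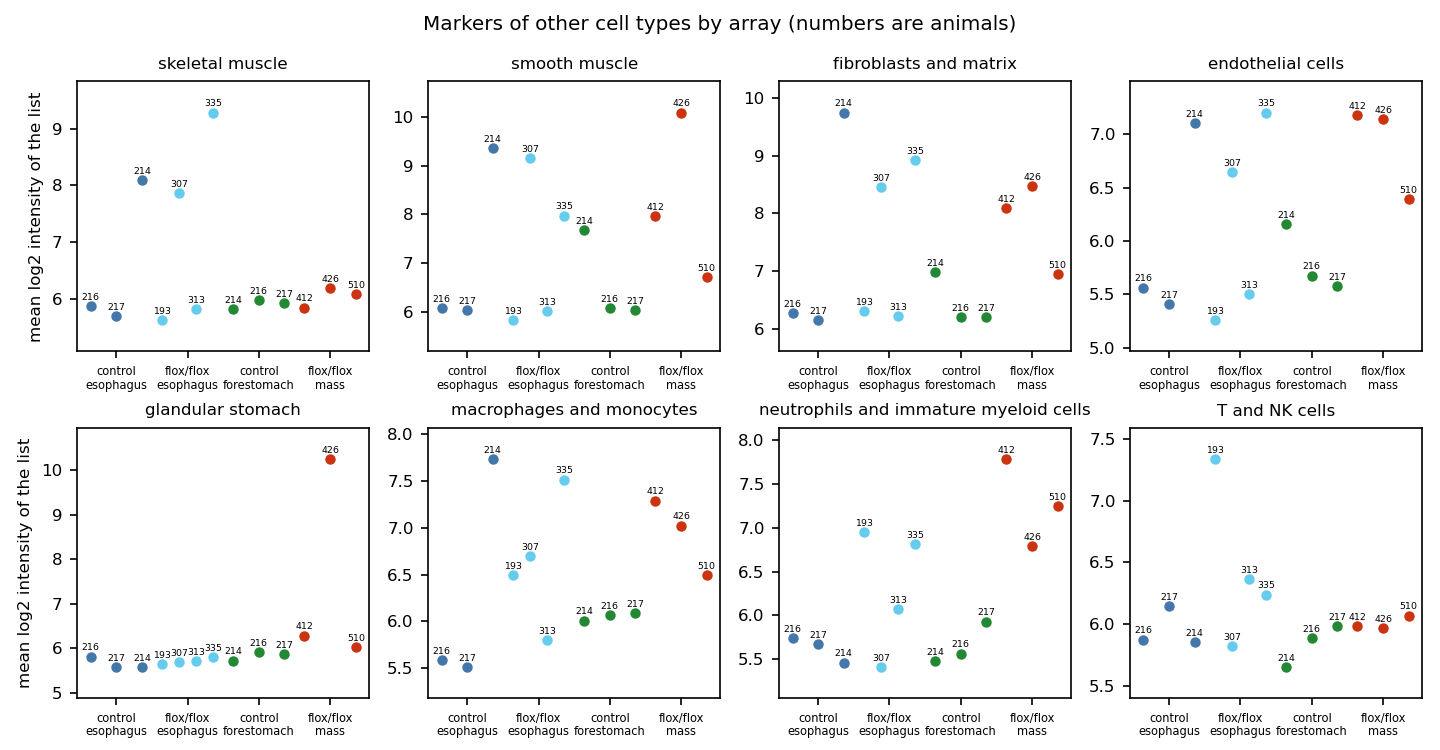
Mean log2 intensity (vertical axis) of 8 marker lists on each of the 13 arrays, with the animal's number above each point. Skeletal muscle genes were high in control esophagus 214 and flox/flox esophagi 307 and 335, glandular stomach genes in mass 426, and T and NK cell genes in esophagus 193.

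Between mass and esophagus in flox/flox, 1112 of 15875 genes (7.0%) were called, 309 higher in the mass (1.95%) and 803 lower (5.06%). Of these, 112 were at least 2-fold higher and 127 at least 2-fold lower. Between control forestomach and control esophagus 1059 genes (6.67%) were called, 558 higher in forestomach (3.51%) and 501 lower (3.16%). The groups of mass and esophagus arrays did not overlap for 1062 of the 1112 called genes and for 17.9% of all genes tested. The flox/flox count depended on the spread taken from all 4 groups. It was 100 with each genotype fitted alone and 441 without the 3 arrays with muscle RNA, and ran from 638 without esophagus 193 to 2364 without mass 412.

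The direction of the normal tissue difference was mostly found again in flox/flox. Of the 1059 normal differences, 937 (88.5%) had the same sign between mass and flox/flox esophagus, against 70.9% of all genes tested. The same sign was found for 82.4% of forestomach-high and 95.2% of esophagus-high normal differences. By the test, 341 normal differences were kept, which is 32.2% of the normal calls and 30.7% of the flox/flox calls. Of these 108 were forestomach-high and 233 esophagus-high. A further 10 were erased, 4 reversed and 704 unresolved, and 2 flox/flox differences were gained. The 3 control animals gave both tissues, and with the animal as a replicate block 527 were kept, 97 erased, 17 reversed and 20 gained, among them 10 of the 10 erased, 4 of the 4 reversed and 1 of the 2 gained, and the change was called for 145 genes. The remaining flox/flox calls were mostly not new in direction, since 666 of the 767 that were not called in controls had the same sign there. The change of the difference itself was called for 22 genes (0.139%), 13 towards a higher and 9 towards a lower value in flox/flox, and 1664 genes had an unadjusted p under 0.05.

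**Figure D2:**
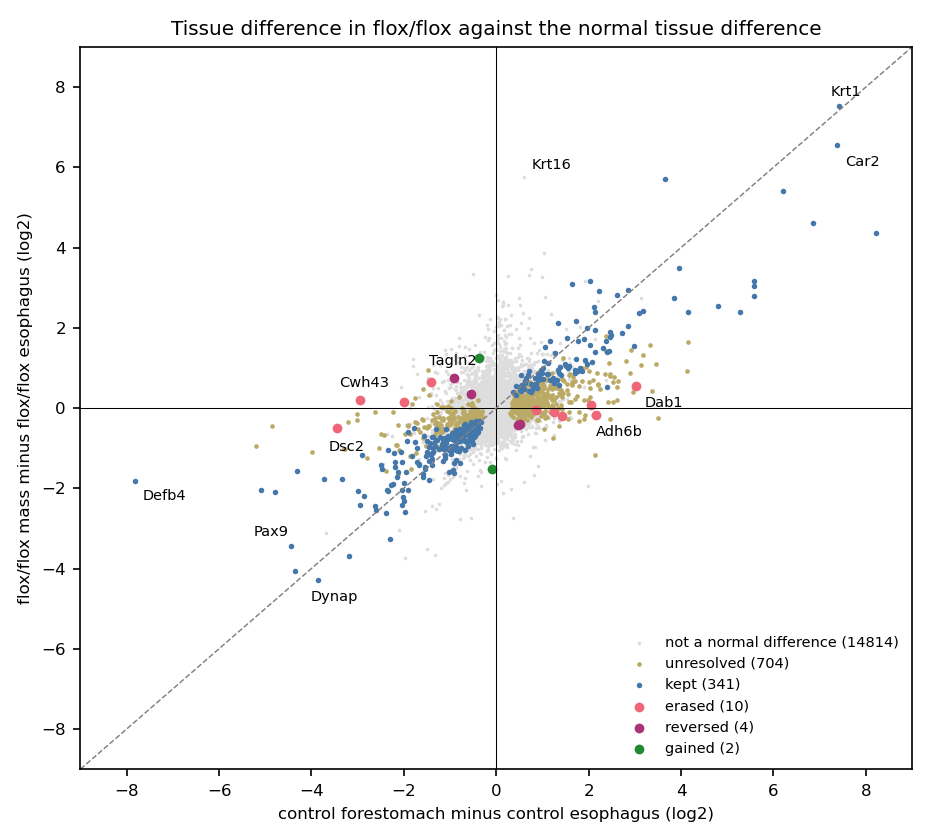
Each point is 1 of the 15875 genes, with the control forestomach minus control esophagus difference (log2, horizontal) against the flox/flox mass minus flox/flox esophagus difference (log2, vertical), coloured by outcome. Kept genes such as Krt1, Car2, Pax9 and Dynap lie near the dashed line of equal differences, erased genes such as Dsc2, Cwh43, Dab1 and Adh6b near the horizontal axis, and Defb4 between these.

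The size of the differences was kept unevenly. Among the 558 forestomach-high genes the median normal difference was 0.83 and the median flox/flox difference 0.26, and 169 (30.3%) had at least 0.5 times the normal size in flox/flox. Among the 501 esophagus-high genes the medians were -0.78 and -0.50, and 319 (63.7%) had at least 0.5 times the normal size. Genes that are normally low in forestomach were thus closer to their forestomach level in the masses than genes that are normally high there. Among normal differences of at least 2-fold the shares were 39.2% and 51.9%, and at an adjusted p under 0.01 they were 33.9% and 58.8%. Without mass 510 they fell to 23.2% and 46.2%, and without mass 412 they were 40.4% and 75.5%. With the 3 muscle RNA arrays left out they were 36% and 61.8%. Both sets were chosen for their normal difference, which by itself leans towards a smaller value in flox/flox.

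The 3 masses stood at different places between the tissues. Each array was placed for each gene on a scale with the control esophagus mean at 0 and the control forestomach mean at 1. Over the forestomach-high genes, masses 412, 426 and 510 had medians of 0.09, 0.27 and 0.46, and over the esophagus-high genes 0.63, 0.73 and 0.91. The flox/flox esophagi stayed close to 0, between -0.05 and 0.01 over the forestomach-high and between 0.07 and 0.13 over the esophagus-high genes. Mass 510 was nearest to normal forestomach in both sets and mass 412 farthest. The 2 sets thus had the same order of masses, and in each mass the esophagus-high genes were nearer to the forestomach level. Taken alone against the flox/flox esophagi, masses 412, 426 and 510 had at least 0.5 times the normal size in 25.1%, 28.3% and 50.7% of the forestomach-high genes. In the esophagus-high genes the shares were 47.7%, 62.3% and 76.4%. Mass 510 also had the lowest mean of the fibroblast list among the masses, and mass 426 the glandular stomach genes, and the part of either in these positions was not tested.

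**Figure D3:**
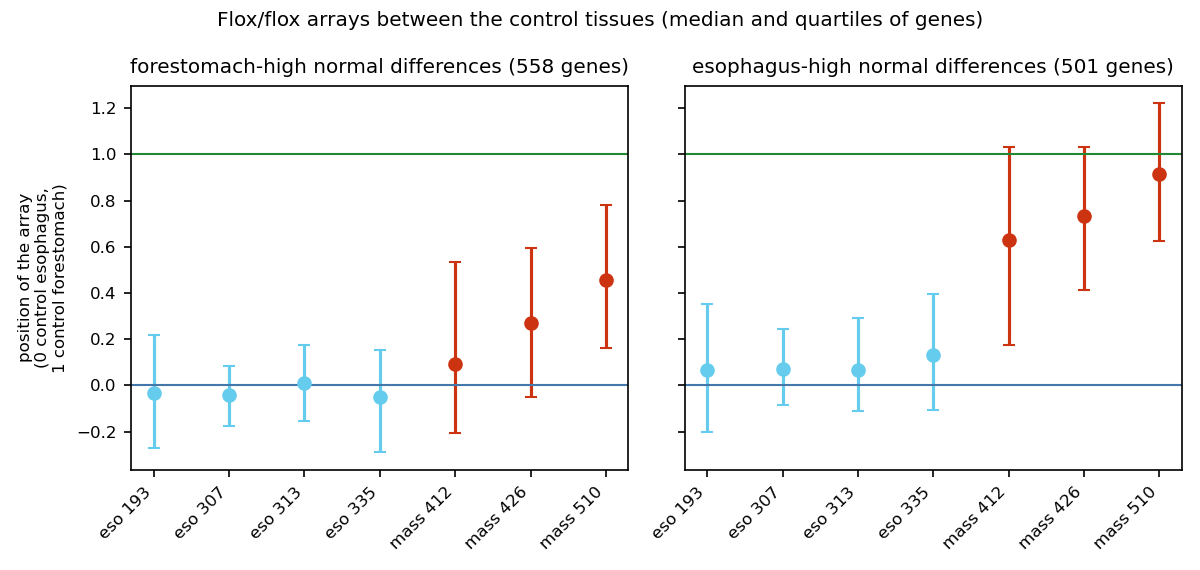
Position of each flox/flox array (horizontal axis) between control esophagus at 0 and control forestomach at 1 (vertical axis, no unit), as the median over genes with bars from the lower to the upper quartile. The 4 esophagi stay near 0, and the masses reach 0.09 to 0.46 for forestomach-high and 0.63 to 0.91 for esophagus-high genes.

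The gene lists are read against the shares over all genes, which were 1.95% higher and 5.06% lower in the masses and 3.51% higher and 3.16% lower in control forestomach, and a list's share near these is not a result about the list. The lists were chosen with earlier results of these data known. A share of calls or of kept differences above that of all genes is therefore a description and no test of the list.

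Keratins were among the largest kept differences, Krt1 having the largest. Krt1, the suprabasal keratin of the epidermis, stood at 12.12, 13.79 and 13.77 in the masses and at 5.85, 5.70, 5.62 and 5.66 in the flox/flox esophagi. The difference of 7.52 (SE 0.33, 183-fold, adjusted p = 3.37e-07) was close to the normal 7.42. Its partner Krt10 was 11.23, 13.45 and 13.40 in the masses and 6.75 to 8.05 in the esophagi, a difference of 5.42 (SE 0.48, 42.8-fold, adjusted p = 0.000134) beside 6.22 in controls. For both genes mass 412 was the lowest of the masses and still far above every esophagus. Krt7, a keratin of simple and glandular epithelia, was 10.41, 9.95 and 8.31 in the masses against 6.19 to 6.62, and its difference was 3.10 (SE 0.39, adjusted p = 0.00117) beside 1.64 in controls. Krt15, a keratin of basal cells, was esophagus-high in both genotypes. It was 8.06, 10.90 and 7.84 in the masses against 12.48 to 12.70, a difference of -3.70 (SE 0.58, adjusted p = 0.00378) beside -3.19. Of the 14 suprabasal and simple keratins tested, 3 were higher (Krt1, Krt10, Krt7) and 2 lower in the masses (Krt4, Krt13). These are 21.4% and 14.3%, against 1.95% and 5.06% of all genes. In control forestomach 5 were higher (35.7%, against 3.51% of all genes) and none lower. The list's median was 0.49 in flox/flox and 0.31 in controls, where the medians over all genes were -0.00 and 0.02.

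Stress keratins, which squamous cells make in wounds and hyperplasia, differed between mass and esophagus in flox/flox but were not among the normal differences. Krt16 stood at 13.27, 11.35 and 13.43 in the masses and at 8.15, 5.19, 7.55 and 6.79 in the flox/flox esophagi, while the control forestomachs were at 6.03, 6.13 and 7.19. The flox/flox difference was 5.76 (SE 0.66, 54.3-fold, adjusted p = 0.000748), the normal one 0.60 (adjusted p = 0.671), and the change missed the threshold (5.17, SE 0.96, adjusted p = 0.0571). Krt17 was 12.66, 10.06 and 12.33 in the masses against 7.39 to 8.24, a difference of 3.86 (SE 0.49, adjusted p = 0.00137) beside 1.03 in controls. Mass 426 was the lowest of the masses for both. The other 2 members, Krt6a and Krt6b, lay between 8.33 and 10.91 and between 10.07 and 13.28 in the flox/flox esophagi, above the control esophagi, and were not called between the tissues (adjusted p = 0.568 and 0.444).

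Cornified envelope genes went both ways in both genotypes. Of 41 tested, 8 were higher (19.5%) and 9 lower (22%) in the masses, against 1.95% and 5.06% of all genes. In control forestomach 11 were higher (26.8%) and 5 lower (12.2%), against 3.51% and 3.16%, and 11 of these differences were kept. Hornerin (Hrnr), a filaggrin-like envelope protein, was 12.47, 13.55 and 13.68 in the masses against 9.71, 10.97, 10.74 and 9.82 in the esophagi. Its difference was 2.92 (SE 0.33, adjusted p = 0.000748) beside 2.23 in controls. Casp14, the caspase of cornification, differed by 1.76 (SE 0.26, adjusted p = 0.00302) beside 1.54. The late envelope gene Lce3a was 9.57, 9.35 and 10.49 in the masses against 11.52 to 12.15, a difference of -2.04 (SE 0.29, adjusted p = 0.00272) beside -2.05. Lce3f was lower by a difference of -1.74 (SE 0.26, adjusted p = 0.00331), and its normal difference of -0.67 was not called. The list's median was -0.04 in flox/flox and 0.07 in controls. Among the list's members called in controls, 5 were unresolved in flox/flox. They include the Lce1 genes Lce1g, Lce1h and Lce1i, named after their values were seen, which were higher by 1.78, 1.90 and 2.47 in control forestomach and differed by -0.31, -0.27 and -0.27 in flox/flox. These late envelope genes are close copies of each other, and probes may read more than one.

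Most regional transcription factors with a normal difference kept it. Of 56 tested, 8 were higher (14.3%) and 9 lower (16.1%) in the masses, against 1.95% and 5.06% of all genes. In control forestomach 8 were higher (14.3%) and 7 lower (12.5%), against 3.51% and 3.16%. Of these 15 normal differences 12 were kept and 3 unresolved, where 32.2% of all normal differences were kept. Pax9, a factor needed for the esophageal program, was 7.0, 8.23 and 6.58 in the masses against 10.72, 10.74, 10.79 and 10.61 in the flox/flox esophagi. The difference was -3.45 (SE 0.29, 10.9-fold, adjusted p = 9.48e-05) beside -4.45, and the control forestomachs lay at 6.25, 6.50 and 6.02. Sim2 was 5.46, 6.67 and 7.44 in the masses against 9.63 to 9.92, a difference of -3.27 (SE 0.37, adjusted p = 0.000693) beside -2.30. On the forestomach side, the Iroquois factor Irx2 was 9.32, 8.88 and 9.44 in the masses against 7.70 to 7.97, a difference of 1.42 (SE 0.14, adjusted p = 0.000301) beside 2.45. Irx3 differed by 1.10 (SE 0.13, adjusted p = 0.000841) beside 1.49. Irx1, Irx5, Gata3 and Meis1 were kept in the same direction and Tbx1, Hoxa2 and Hoxb2 in the other, all named after their values were seen. Gata3 differed by 2.05 in flox/flox and 2.85 in controls. Leaving out the 3 arrays with muscle RNA, the list's counts were 5 higher and 5 lower in flox/flox and 6 and 3 in controls.

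The basal genes that were called were lower in the masses. Of 14 basal squamous genes 5 were lower (35.7%, against 5.06% of all genes) and none higher in the masses, 4 were lower in control forestomach (28.6%, against 3.16%), and those 4 were kept. Besides Krt15 they are parts of the hemidesmosome and its basement membrane. Col17a1 (collagen XVII) was 9.55, 9.12 and 9.23 in the masses, below all 4 flox/flox esophagi, a difference of -0.82 (SE 0.12, adjusted p = 0.00265) beside -0.64. Itgb4 (integrin beta 4) differed by -0.82 (SE 0.16, adjusted p = 0.011) beside -0.82 and Lamb3 (a laminin chain) by -0.80 (SE 0.16, adjusted p = 0.0127) beside -0.77. The list's median was -0.32 in flox/flox and -0.56 in controls. With each genotype fitted alone, 0 of the 14 were called in flox/flox by limma, where 7 had an unadjusted p under 0.05 in the joint fit.

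In the main fit, called desmosomal genes were lower in the masses, those of tight and gap junctions were higher, and 1 adherens junction gene was called. With each genotype fitted alone, and also without the 3 arrays with muscle RNA, 0 adherens junction and 0 desmosomal genes were called in flox/flox by limma. In the joint fit 4 and 5 of them had an unadjusted p under 0.05. Of the tight and gap junction genes 1 was called under either setting. Of 12 adherens junction genes 1 was called lower (8.3%), near the 5.06% of all genes, and it is given as a single gene. That gene was Afdn (afadin, which links nectins to actin), with a difference of -0.41 (SE 0.09, adjusted p = 0.0213). It was lost without esophagus 307 (0.056) or 313 (0.0554). Of 11 desmosomal genes 3 were lower in the masses (27.3%, against 5.06% of all genes) and none higher. Periplakin (Ppl) differed by -0.59 (SE 0.12, adjusted p = 0.0127) and envoplakin (Evpl) by -0.72 (SE 0.17, adjusted p = 0.0271), neither with a normal difference that was called. Evpl was lost without esophagus 307 (0.0634) or 313 (0.0691). Plakophilin 1 (Pkp1) was kept at -0.48 (SE 0.11, adjusted p = 0.0294) beside -0.64, and was lost without esophagus 193 (0.0731), 307 (0.0691) or 335 (0.063) or mass 426 (0.0592). Of 17 tight and gap junction genes 3 were higher in the masses (17.6%, against 1.95% of all genes) and none lower. Occludin (Ocln) was 9.0, 8.67 and 9.0 in the masses against 7.41 to 8.10, and differed by 1.12 (SE 0.17, adjusted p = 0.00342) in flox/flox and by 1.12 in controls. Claudin 1 (Cldn1) differed by 1.66 (SE 0.38, adjusted p = 0.0263) beside 1.76, and was lost without esophagus 307 (0.0596) or 335 (0.0527) or mass 510 (0.0735). Claudin 7 (Cldn7) differed by 0.75 (SE 0.20, adjusted p = 0.0416) beside 0.45, and 8 of the 13 arrays each ended that call when left out, with adjusted p up to 0.105.

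Secreted, transport and surface genes supplied further kept differences. Car2 (carbonic anhydrase II) was 10.63, 11.93 and 11.53 in the masses against 4.54, 4.22, 5.68 and 4.79 in the esophagi, a difference of 6.56 (SE 0.35, adjusted p = 1.95e-06) beside 7.37, with no fold given since the esophagi lie close to the filter level of 5. Spink12, which encodes a Kazal-type protease inhibitor, was 10.80, 8.45 and 11.50 against 4.05 to 4.87, a difference of 5.70 (SE 0.58, adjusted p = 0.00034) beside 3.65. The desquamation protease Klk5 differed by 3.49 (SE 0.46, adjusted p = 0.0018) beside 3.97, and Lipn, an epidermal lipase, by 4.60 (SE 0.42, adjusted p = 0.000182) beside 6.85. For Lipn mass 412 stood at 8.47 and mass 510 at 10.99, against 11.71 to 11.86 in control forestomach. On the esophageal side Dynap, which encodes a membrane protein, was 4.99, 5.36 and 4.91 in the masses against 9.66, 8.87, 9.0 and 10.01, a difference of -4.30 (SE 0.26, adjusted p = 5.36e-06) beside -3.85. The potassium channel gene Kcnq5 was 6.34, 6.37 and 6.15 against 8.64 to 8.98, a difference of -2.53 (SE 0.11, adjusted p = 3.37e-07) beside -2.60. Slc37a2, a sugar-phosphate exchanger, differed by -2.41 (SE 0.14, adjusted p = 2.92e-06) beside -2.95, and Pir (pirin) by -2.62 (SE 0.17, adjusted p = 9.5e-06) beside -2.38. For Dynap, Kcnq5, Slc37a2 and Pir all 3 masses were below all 4 esophagi by more than the range of either group.

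Some kept differences rested on fewer arrays. Serpina12, a serpin, was 5.99, 8.93 and 10.35 in the masses against 4.92 to 5.5, and its difference of 3.17 (SE 0.73, adjusted p = 0.0249), beside 5.58 in controls, was lost without any 1 flox/flox array other than mass 412 (adjusted p from 0.0502 to 0.0578). Fa2h, a fatty acid hydroxylase of barrier lipids, was 5.77, 9.05 and 9.37 against 4.83 to 5.13, and its difference of 3.05 (SE 0.64, adjusted p = 0.0169), beside 5.57, was lost without mass 510 (0.052). In both genes mass 412 was close to the esophagi. Efemp1, which encodes the matrix protein fibulin 3, differed by -2.43 (SE 0.52, adjusted p = 0.019) beside -2.63, and by -1.57 without mass 510.

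**Figure D4:**
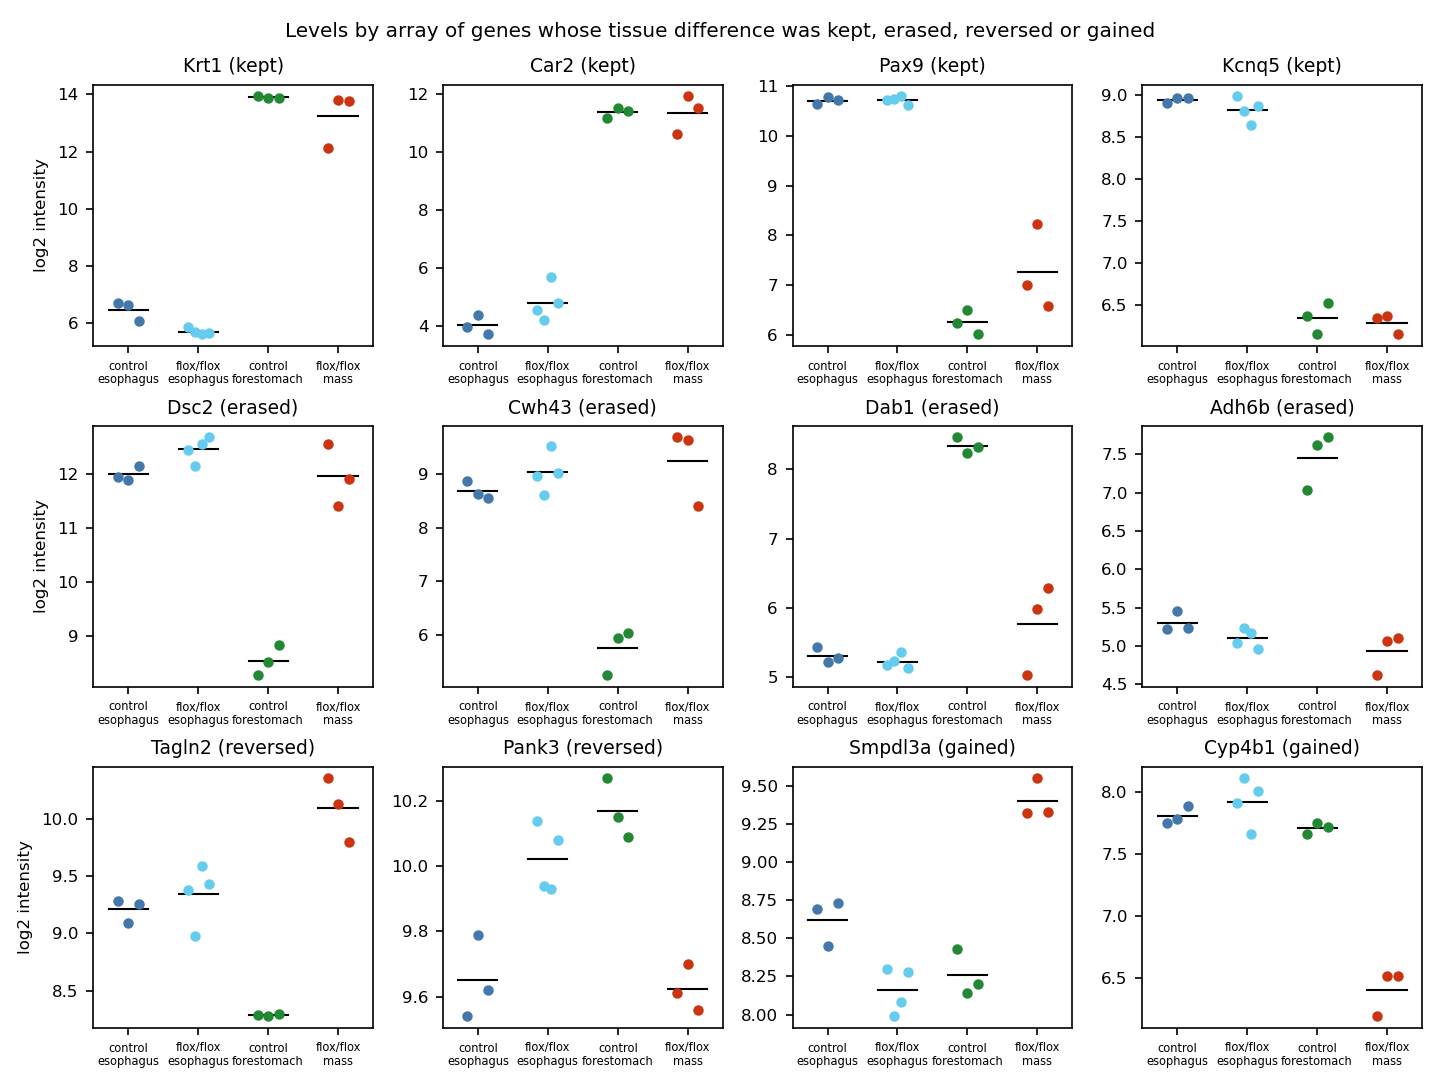
Log2 intensity (vertical axis) of 12 genes in the 4 groups, each point an array and each bar a group mean. In the kept genes the masses lie nearer to control forestomach than to the esophagi and in the erased genes nearer to the esophagi. In Tagln2 and Pank3 masses and control forestomach lie on opposite sides of the flox/flox esophagi, and in Smpdl3a and Cyp4b1 the masses stand apart from all 3 other groups.

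Erased differences were led by genes that are normally low in forestomach and stood at the esophageal level in the masses. Dsc2 (desmocollin 2), a desmosomal cadherin, was 12.54, 11.41 and 11.90 in the masses and 12.44, 12.14, 12.54 and 12.67 in the flox/flox esophagi. Control forestomach was at 8.28, 8.53 and 8.83 and control esophagus at 11.88 to 12.15. The normal difference of -3.44 (SE 0.25, 10.9-fold, adjusted p = 9.54e-06) became -0.50 (SE 0.23, adjusted p = 0.199), a change of 2.95 (SE 0.34, adjusted p = 0.00392) that was called without each single array. Cwh43, which takes part in remodelling of GPI anchors, was 9.69, 9.64 and 8.40 in the masses and 8.62 to 9.53 in the esophagi, against 5.25, 5.95 and 6.04 in control forestomach. Its change was 3.15 (SE 0.46, adjusted p = 0.0208), and was lost without control esophagus 216 (0.0937), 217 (0.0589) or 214 (0.0545), flox/flox esophagus 335 (0.0555), or control forestomach 214 (0.0663) or 216 (0.0586). Tlr4, the lipopolysaccharide receptor, was 8.80, 7.77 and 7.96 in the masses and 7.80 to 8.30 in the esophagi, against 5.70 to 6.28 in control forestomach, a change of 2.16 (SE 0.33, adjusted p = 0.0278). Ctsh (cathepsin H) changed by 2.07 (SE 0.35, adjusted p = 0.0498). Leaving out any of 9 arrays ended the call of Tlr4 and any of 10 that of Ctsh, with adjusted p up to 0.107 and 0.137.

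The 6 erased forestomach-high genes were nearer to the esophageal than to the control forestomach level in the masses. Dab1, an adaptor of reelin signalling, was 5.03, 5.99 and 6.29 in the masses and 5.13 to 5.36 in the flox/flox esophagi, against 8.24 to 8.46 in control forestomach. Masses 426 and 510 were above every flox/flox esophagus, by far less than the normal difference. Its change was -2.49 (SE 0.33, adjusted p = 0.0113). Adh6b, an alcohol dehydrogenase, was 4.62, 5.07 and 5.10 against 4.96 to 5.24, with control forestomach at 7.03, 7.62 and 7.72, a change of -2.33 (SE 0.25, adjusted p = 0.00284). It lies among close copies of the same family, so probes may read more than one. Orm1 (orosomucoid 1, an acute-phase glycoprotein) changed by -1.97 (SE 0.23, adjusted p = 0.00412), Arxes2 by -1.63 (SE 0.27, adjusted p = 0.0456), the exporter gene Slc47a1 by -1.35 (SE 0.19, adjusted p = 0.0179) and Tspyl4 by -0.92 (SE 0.15, adjusted p = 0.0495). Dab1, Adh6b and Orm1 were called without each single array. Leaving out any of 9 arrays ended the call of Arxes2, any of 6 that of Slc47a1 and any of 10 that of Tspyl4, with adjusted p up to 0.139. Without the 3 arrays with muscle RNA none of the 10 erased genes was called (the change of Dsc2 was 2.82, adjusted p = 0.0763), where the change was called for 5 genes in place of 22, and with the animal as a replicate block all 10 were, among 97.

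Between kept and erased lay genes whose difference was called in both genotypes but was smaller in flox/flox. There were 7 kept genes with a called change, and in all 7 the flox/flox difference was the smaller. Defb4, an antimicrobial beta-defensin, was 12.62, 12.72, 12.86 and 12.45 in the flox/flox esophagi and 10.49, 10.83 and 11.21 in the masses, while control forestomach was at 4.14, 4.74 and 6.10. The normal difference of -7.83 (SE 0.37, adjusted p = 4.35e-07) was -1.82 (SE 0.35, 3.53-fold, adjusted p = 0.0112) in flox/flox, a change of 6.01 (SE 0.51, adjusted p = 0.00117). The control forestomach level is close to the filter level of 5, so no fold is given. The flox/flox call was lost with array weights (0.175), without the 3 arrays with muscle RNA (0.0669) and without these and mass 426 (0.0837). Elovl7, a fatty acid elongase, was 10.63, 10.74 and 10.92 in the masses against 11.20 to 11.46, with control forestomach at 9.50 to 9.59, a change of 1.32 (SE 0.14, adjusted p = 0.00284). The other 5 were named after their values were seen. F3 (tissue factor) differed by -2.04 in flox/flox and -5.08 in controls. Sptlc3, a serine palmitoyltransferase subunit, differed by -2.09 and -4.80, Trps1, a transcriptional repressor, by -1.17 and -2.92, and Sdc3 (syndecan 3) by -0.51 and -1.77. Rdh1, a retinol dehydrogenase, differed by 0.53 and 2.40 and was the only forestomach-high gene of the 7. Of these 7, 6 are esophagus-high.

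Reversed differences were small. Tagln2 (transgelin 2), an actin-binding protein, was 10.35, 10.13 and 9.80 in the masses and 9.38, 8.98, 9.59 and 9.43 in the flox/flox esophagi. In controls the forestomach was lower, at 8.28 to 8.30 against 9.09 to 9.28. The difference was 0.75 (SE 0.15, adjusted p = 0.0142) in flox/flox and -0.92 (SE 0.16, adjusted p = 0.00529) in controls, a change of 1.67 (SE 0.22, adjusted p = 0.0113). That change was lost without control esophagus 216 (0.0515) or control forestomach 216 (0.0525). Gnb5, a G protein beta subunit, was 7.19, 7.21 and 6.92 in the masses against 6.69 to 6.79, a difference of 0.36 beside -0.55 in controls, and changed by 0.91 (SE 0.13, adjusted p = 0.0193). Its control esophagus level was 7.15 to 7.2, so that the flox/flox esophagi were at the control forestomach level of 6.53 to 6.71. Pank3, a pantothenate kinase, was 9.61, 9.70 and 9.56 in the masses against 9.93 to 10.14, a difference of -0.40 beside 0.52, and changed by -0.92 (SE 0.14, adjusted p = 0.0255). Icosl, a T cell co-stimulatory ligand, differed by -0.42 beside 0.47, and its change (-0.89, SE 0.16, adjusted p = 0.0571) was not called. Leaving out any of 7 arrays ended the call on the change of Gnb5 or of Pank3, with adjusted p up to 0.079 and 0.108. No gene was reversed without the 3 arrays with muscle RNA by limma's adjusted p, and 44 were at an unadjusted p under 0.05 in both comparisons, against 81 in the full fit.

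Gained differences were Smpdl3a and Cyp4b1. Smpdl3a, a phosphodiesterase related to acid sphingomyelinase, was 9.32, 9.55 and 9.33 in the masses against 8.30, 7.99, 8.08 and 8.28 in the flox/flox esophagi, with control forestomach at 8.14 to 8.43 and control esophagus at 8.45 to 8.73. Its difference was 1.24 (SE 0.12, adjusted p = 0.000221) and its change 1.61 (SE 0.17, adjusted p = 0.00284). Cyp4b1, a cytochrome P450, was 6.19, 6.51 and 6.51 in the masses and between 7.66 and 8.11 on the other 10 arrays. Its difference was -1.52 (SE 0.12, adjusted p = 6.19e-05) and its change -1.42 (SE 0.17, adjusted p = 0.00555). Both changes were called without each single array, and neither without the 3 arrays with muscle RNA (adjusted p = 0.0763 and 0.0931). With the animal as a replicate block 1 of the 2 was still gained.

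Xenobiotic and retinoid enzymes, which oxidise and conjugate foreign compounds and vitamin A, held more genes lower in the masses by count than any other list. By share the basal squamous list was higher (35.7%, against 30.4% here). Of 46 tested, 14 were lower and 1 higher in flox/flox (background 5.06% and 1.95%), and 3 were lower and 4 higher in control forestomach. The control counts depended on the fit, with 14 lower and 12 higher where each genotype was fitted alone and 11 and 9 with the animal as a replicate block, so these counts are not evidence of a difference between the genotypes. The list's median was -0.55 in flox/flox and -0.00 in controls. The alcohol dehydrogenase Adh7 was 10.25, 10.96 and 10.08 in the masses against 12.11 to 12.64, a difference of -1.86 (SE 0.19, adjusted p = 0.000338) beside -0.71. Aldh3a1, an aldehyde dehydrogenase, was 7.65, 10.67 and 7.82 against 11.49 to 13.10, a difference of -3.66 (SE 0.60, adjusted p = 0.00503) beside -1.32. Fmo2, a flavin monooxygenase, was 6.31, 9.31 and 6.69 against 10.49 to 11.94, a difference of -3.73 (SE 0.59, adjusted p = 0.00431) beside -1.98. Cyp2f2 differed by -2.76 (SE 0.40, adjusted p = 0.00302) beside -0.79 and Cbr2, a carbonyl reductase, by -2.05 (SE 0.30, adjusted p = 0.00274) beside -0.65. In Aldh3a1, Fmo2 and Cyp2f2 mass 426 was the highest mass and still below every esophagus. The carboxylesterase Ces1b, which is not on this list, was kept, at 6.41, 7.26 and 6.50 against 9.66 to 11.51, a difference of -4.07 (SE 0.39, 16.8-fold, adjusted p = 0.000205) beside -4.36. Rdh10, a retinol dehydrogenase, was the member of the list that was higher, at 10.76, 9.80 and 9.66 against 8.35 to 8.54, a difference of 1.63 (SE 0.23, adjusted p = 0.0025) beside 0.82. Of this list, only Cyp4b1 had a called change, so a difference between the genotypes was not shown for the others. In flox/flox the counts were 8 lower and 1 higher without the 3 arrays with muscle RNA, 3 and 1 with each genotype fitted alone and 14 and 1 with the animal block.

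Other large differences of the masses were not called in controls. The amino acid transporter gene Slc6a14 was 11.59, 7.27 and 9.25 in the masses against 4.82 to 6.81, a difference of 3.46 (SE 0.78, adjusted p = 0.0231), which was lost without esophagus 307 (0.0593) or 313 (0.0575) or mass 510 (0.0536). Ugt8a, which makes galactosylceramide, was 9.89, 8.39 and 7.75 against 5.03 to 5.85, a difference of 3.32 (SE 0.42, adjusted p = 0.00137). Adenosine deaminase (Ada), abundant in the foregut epithelium, was 7.24, 10.92 and 11.12 against 11.80 to 13.37, a difference of -2.75 (SE 0.74, adjusted p = 0.0467). It was -1.49 without mass 412, and leaving out any of the 10 arrays that are not masses ended its call, with adjusted p up to 0.107.

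Protease and transport lists had calls in both directions, and the defence list had only lower ones in the main fit. Of 20 alarmins and antimicrobial proteins 2 were lower in the masses (10%, against 5.06% of all genes) and none higher. In control forestomach 4 were lower (20%, against 3.16% of all genes). Besides Defb4 the other was Slpi, a secreted leukocyte protease inhibitor, kept at -0.80 (SE 0.12, adjusted p = 0.00376) beside -1.28. Of 43 proteases and inhibitors 5 were higher (11.6%, against 1.95% of all genes) and 3 lower (7%, against 5.06%) in the masses. In control forestomach 7 were higher (16.3%, against 3.51% of all genes) and 5 lower (11.6%, against 3.16%). The control counts were 12 and 9 with each genotype fitted alone and 4 and 4 without the 3 arrays with muscle RNA. The membrane proteases Tmprss11b and Tmprss11d, named after their values were seen, differed by -4.86 and -2.62 in controls and by -0.45 and -0.09 in flox/flox, with no call on the change (adjusted p = 0.0771 and 0.13). The urokinase receptor Plaur was 7.01, 7.23 and 6.43 in the masses against 5.86 to 6.19, a difference of 0.88 (SE 0.17, adjusted p = 0.0133). Serpinb5 (maspin) differed by -0.66 (SE 0.11, adjusted p = 0.00599). Of 30 mucins, ion and water transport genes 5 were higher (16.7%, against 1.95% of all genes) and 3 lower (10%, against 5.06%). Besides Car2, the chloride channel gene Ano1 differed by 1.03 (SE 0.24, adjusted p = 0.0251), the aquaporin Aqp3 by -0.74 (SE 0.13, adjusted p = 0.00632) and Car12 by -0.85 (SE 0.20, adjusted p = 0.026). Ano1 was lost without esophagus 193 (0.0582), 307 (0.0594) or 313 (0.051). Car12 was lost without esophagus 193 (0.0511), 313 (0.0526) or 335 (0.0513) or mass 426 (0.053) or 510 (0.0588).

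Lipid genes were near the shares of all genes in flox/flox, and growth factors were above them in both directions in the main fit. Of 31 lipid and barrier lipid genes 1 was higher (3.2%) and 2 were lower (6.5%) in the masses. In control forestomach 5 were higher (16.1%, against 3.51% of all genes) and 1 was lower (3.2%, against 3.16%). The control count of higher genes was 13 with each genotype fitted alone, 12 with the animal block and 1 without the 3 arrays with muscle RNA. Alox12b, a lipoxygenase of the barrier, differed by -0.85 (SE 0.23, adjusted p = 0.0491), and leaving out any of 11 arrays ended that call (adjusted p up to 0.113). Of 21 growth factors and receptors 3 were higher (14.3%, against 1.95% of all genes) and 4 lower (19%, against 5.06%). With each genotype fitted alone, and also without the 3 arrays with muscle RNA, 0 were called higher and 1 lower by limma. In the joint fit 8 had an unadjusted p under 0.05. Fgfr3 was 9.17, 8.53 and 8.43 in the masses against 10.18 to 10.54, a difference of -1.61 (SE 0.16, adjusted p = 0.000338) beside -0.91. Erbb2 differed by -0.56 (SE 0.11, adjusted p = 0.011) and Fgfr2 by -0.69 (SE 0.15, adjusted p = 0.0196), the latter lost without esophagus 193 (0.0511). The EGF receptor ligand betacellulin (Btc) was kept at 0.70 (SE 0.14, adjusted p = 0.0142) beside 1.31.

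Of 44 Wnt, Notch, hedgehog and BMP genes 3 were higher and 3 lower (6.8% each, against 1.95% and 5.06% of all genes). In controls 3 were higher (6.8%, against 3.51%) and 1 lower (2.3%, against 3.16%). The lower calls are near the share of all genes, and the members are given as single genes. The BMP target Id1 was kept at 0.95 (SE 0.16, adjusted p = 0.00594) beside 0.97. Id3, a related target, was higher by 0.85 (SE 0.21, adjusted p = 0.0303) and the BMP antagonist Grem1 by 1.75 (SE 0.38, adjusted p = 0.0191). The Notch target Hes1 was lower, by a difference of -0.50 (SE 0.12, adjusted p = 0.0293). Hes1 was lost without esophagus 193 (0.072), 307 (0.0765) or 313 (0.0603) or mass 510 (0.0873), and Id3 without esophagus 193 (0.0781), 307 (0.0704) or 313 (0.0708) or mass 426 (0.0768). Of 17 immediate early genes 0 were called in flox/flox by limma (3 at an unadjusted p under 0.05). In control forestomach 4 were higher (23.5%, against 3.51% of all genes), namely Jun, Egr3, Nr4a1 and Zfp36, named after their values were seen. That count was 3 with each genotype fitted alone, 7 with the animal block and 0 without the 3 arrays with muscle RNA. The change was called for 0 of the 17, so a difference between the genotypes was not shown. The list's median was 0.13 in flox/flox and 0.62 in controls. Of 20 hypoxia and glycolysis genes 5 were lower (25%, against 3.16% of all genes) and 1 higher (5%, against 3.51%) in control forestomach. The control count of lower genes was 7 with each genotype fitted alone, 10 with the animal block and 2 without the 3 arrays with muscle RNA. In the masses 1 was higher (5%, against 1.95%), the lactate transporter Slc16a3, by 1.08 (SE 0.25, adjusted p = 0.0264). The change was called for 0 of the 20. Slc16a3 was lost without esophagus 193 (0.0561), 307 (0.0604) or 313 (0.0627) and was 0.67 without mass 412. Of 29 proliferation genes 0 were called in either comparison (1 and 4 at an unadjusted p under 0.05), and the median was 0.14 in flox/flox and -0.10 in controls.

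**Figure D5:**
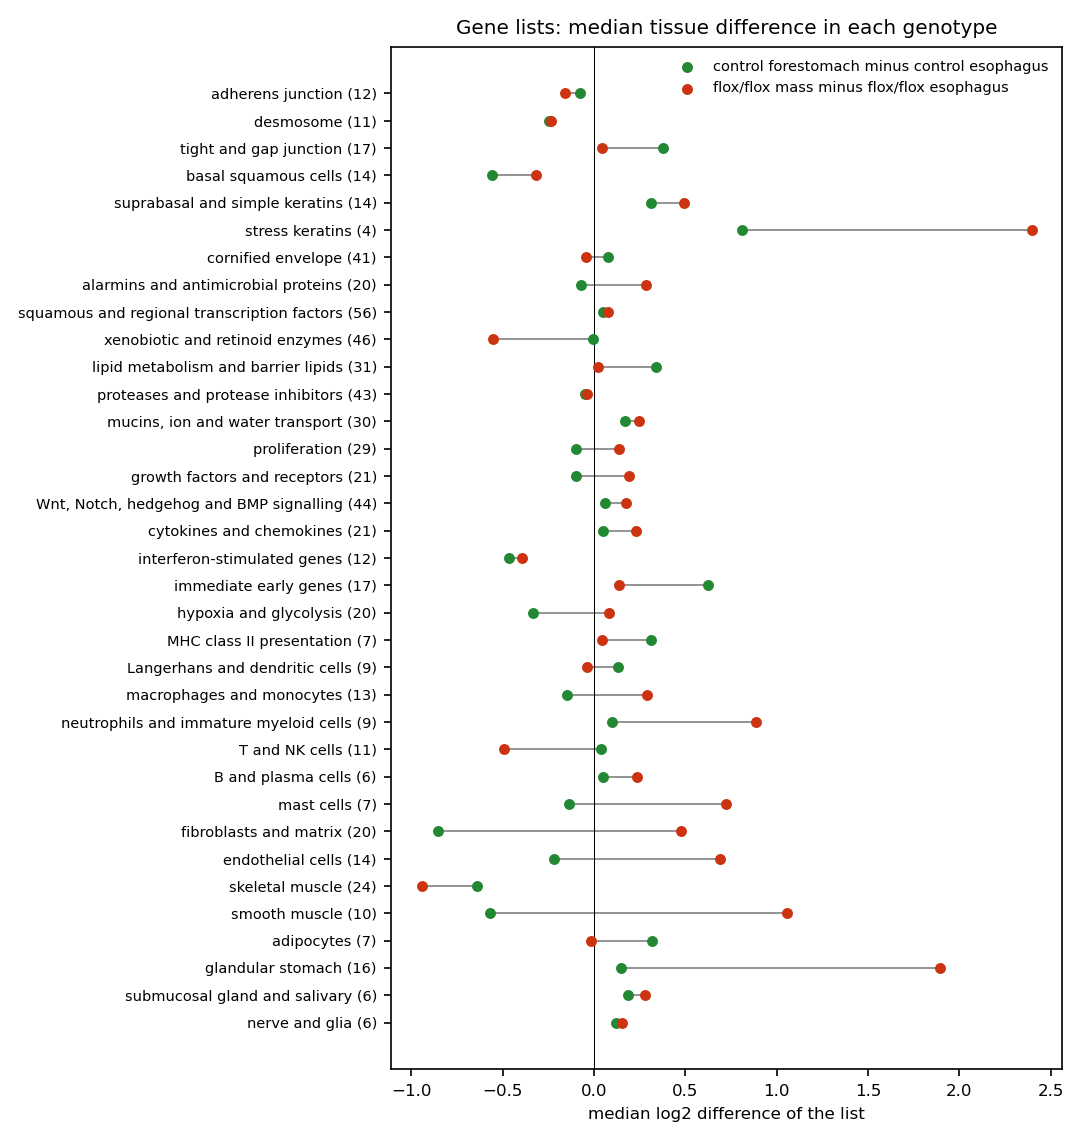
Median log2 difference (horizontal axis) of each gene list, with the number of genes tested in brackets, in flox/flox (red) and in controls (green). Stress keratins and glandular stomach genes have the medians farthest to the right in flox/flox, the latter through mass 426 (1.89, and 0.34 without it and the muscle RNA arrays). Skeletal muscle genes (-0.94, and 0.21 without the muscle RNA arrays) lie farthest to the left, followed by xenobiotic enzymes (-0.55). Desmosome and transcription factor lists have nearly the same median in both.

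Immune and stromal markers were rarely called between mass and flox/flox esophagus, and their levels varied between arrays of a group. Of 9 neutrophil genes 0 were called (2 at an unadjusted p under 0.05), with a median difference of 0.89. Ptprc, the pan-leukocyte gene, was 7.66, 6.78 and 6.73 in the masses and 8.94, 5.90, 6.60 and 7.65 in the esophagi, and differed by -0.22 (SE 0.62, adjusted p = 0.847). Cd14, the monocyte co-receptor, was kept at 0.66 (SE 0.14, adjusted p = 0.0188) beside 0.61, and was lost without esophagus 313 (0.0502). Cd5, a T cell surface gene on the T and NK list, was 7.10, 7.04 and 7.15 in the masses against 8.19 to 8.54, and was kept at -1.24 (SE 0.11, adjusted p = 0.000116) beside -1.11. Esophagus 193, which was highest for the list, was at 8.33 and not the highest for Cd5. Usp18, an interferon-stimulated gene, was kept at -0.98 (SE 0.16, adjusted p = 0.00453) beside -1.11. Ptgs2 (cyclooxygenase 2) was higher by 1.19 (SE 0.32, adjusted p = 0.0435), and leaving out any of 11 arrays ended that call (adjusted p up to 0.109). Of 20 fibroblast and 10 smooth muscle genes 0 were called (1 and 0 at an unadjusted p under 0.05), and of 14 endothelial genes Plvap was, by 1.5 (SE 0.36, adjusted p = 0.0304). Plvap was lost without esophagus 193 (0.0786) or 313 (0.0771) or mass 412 (0.0542) or 426 (0.0604). Without the 3 arrays with muscle RNA 9 of 20 fibroblast and 10 of 14 endothelial genes were called higher in the masses, where 182 of all 15875 genes were. That fit compared the masses, with fibroblast list means of 8.09, 8.48 and 6.94, only with esophagi 193 and 313, at 6.30 and 6.22. The counts therefore depend on which esophagi were left in. In the same fit the median difference of the smooth muscle list was 2.71, against 1.06 in the main fit. Tubb3, a neuronal tubulin, was 6.14, 5.56 and 6.58 in the masses against 4.89 to 5.24, a difference of 1.09 (SE 0.21, adjusted p = 0.0127).

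Glandular stomach genes were high in 1 mass. Of 16 tested 0 were called (5 at an unadjusted p under 0.05), with a median difference of 1.89, which was 0.34 without mass 426 and the 3 arrays with muscle RNA. The mucin gene Muc5ac was 5.11, 12.09 and 5.76 in masses 412, 426 and 510, the proton pump gene Atp4a 6.15, 11.51 and 6.32 and the trefoil gene Tff1 6.79, 13.39 and 6.94, all named after their values were seen. In masses 412 and 510 they stood near the flox/flox esophagus levels of 4.94 to 5.06, 5.68 to 6.08 and 6.73 to 6.90. Without the 3 arrays with muscle RNA and mass 426 together, 654 genes were called in flox/flox and 221 normal differences were kept. In the same fit 19 were erased, 6 reversed and 8 gained.

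Of the 71 named genes called in the flox/flox difference and followed over the 23 alternative settings, 27 were called under every setting and 51 without each single array. With each genotype fitted alone 30 of the 71 were called. They were named mainly for large differences or small adjusted p-values, so they do not stand for all calls. Of all 1112 calls, 100 remained with each genotype fitted alone and 327 without the 3 arrays with muscle RNA. The 27 include Krt1, Krt10, Krt16, Krt17, Car2, Spink12, Lipn, Klk5, Hrnr, Irx2 and Irx3 on the higher side. On the lower side they include Pax9, Sim2, Dynap, Ces1b, Kcnq5, Slc37a2, Pir, Lce3a, Adh7, Cbr2, Fgfr3 and Cd5. Genes whose call no single array ended could still lose it under another setting. Without the 3 arrays with muscle RNA, limma's adjusted p was 0.101 for Erbb2, 0.099 for Plaur, 0.0859 for Btc, 0.0562 for Grem1 and 0.084 for Ppl. With each genotype fitted alone it was 0.0797 for Aldh3a1, 0.0698 for Fmo2 and 0.0598 for Krt15.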

How the data were processed

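Epithelial RNA of 13 samples was hybridised to 1-colour Affymetrix gene arrays. The authors deposited GCRMA intensities on a linear scale (GCRMA per the submitters' processing notes, its version not given in the sources used here), and precision is limited by how many arrays there are. Median intensity per array was 65.3 to 72.4. Of 34729 probe sets, 21633 had 1 gene symbol, 1306 several and 11790 none, and 21546 were found in RefSeq. Deposited intensities were turned into log2 values here, each gene was read from its probe set with the highest mean, and genes above 5 on at least 3 arrays were tested (15875 of 19934). One fit of 4 group means with limma 3.58.1 in R 4.3.3 (9 residual degrees of freedom) gave the flox/flox difference, the normal difference and their difference. All adjusted p-values are limma's with Benjamini-Hochberg adjustment over all genes tested. The fit was tested on simulated data with the same spread per gene in all 4 groups. The masses varied more (median SD 0.248, against 0.148 in the flox/flox esophagi), so that test does not cover their larger spread.

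Genes named were Ctnnd1, Cdh1, Cdh3, Krt5, Krt13, Krt4 and Ptprc, the 10 largest called rises and falls without overlap, up to 8 of each outcome and direction, and up to 4 called members of each list by adjusted p, leaving out predicted genes. Krt14, Trp63, Krt6a and Krt6b are members of lists named for their role. The members and the 35 gene lists were chosen with earlier results of these data known.

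Control animals 214, 216 and 217 gave both tissues. Deviations of the 2 tissues of an animal from their group means correlated at 0.40, 0.40 and 0.31, against -0.43 to 0.13 between animals, so the numbers pair the samples. Alternatives changed the filter, probe set rule, scaling, spread, threshold and arrays.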

Additional observations from a re-analysis of the deposited data

Results flagged for a closer look

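Among 127 values examined in the 4 flox/flox esophagi, 4 had 1 array far from the others by Dixon's criterion, which chance gives in about 1 in 20 groups. Pkp1 was 12.08 in esophagus 313 and 12.24 to 12.27 in the others, and Fgfr2 was 9.53 in esophagus 335 and 9.78 to 9.81 in the others. The mean of the mucin, ion and water transport list was 7.28 in esophagus 335 against 7.03 to 7.06, and that of the mast cell list 5.99 against 5.21 to 5.32.

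The tissue difference itself differed between the genotypes, by limma's test of the change, in 17 of the named genes. It was higher in flox/flox for Defb4 by 6.01, Cwh43 by 3.15, Dsc2 by 2.95, Tlr4 by 2.16, Ctsh by 2.07, Tagln2 by 1.67, Smpdl3a by 1.61, Elovl7 by 1.32 and Gnb5 by 0.91. The change was -2.49 for Dab1, -2.33 for Adh6b, -1.97 for Orm1, -1.63 for Arxes2, -1.42 for Cyp4b1, -1.35 for Slc47a1, -0.92 for Pank3 and -0.92 for Tspyl4. Erased and gained genes were named because their change had been called, so the count of 17 follows in part from the selection. Over all genes tested the change was called for 22 of 15875 (0.139%).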

How the results depend on the processing

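The genes called between mass and flox/flox esophagus (1112) became 100 with each genotype in its own fit, 244 with array weights per group, 441 without the 3 muscle RNA arrays, 654 without these and mass 426, 299 at an adjusted p under 0.01 and 239 at 2-fold or more. Normal calls (1059) became 2273, 2865, 479, 459 and 402 under own fits, weights, no muscle RNA arrays, the stricter p and 2-fold. Kept differences (341) became 76, 190, 133, 221, 116 and 125 under own fits, weights, no muscle RNA arrays, these and mass 426, the stricter p and 2-fold. Calls on the change (22) became 101 with the stricter filter, 49 with quantile scaling, 37 with weights, 5 without the muscle RNA arrays, 37 without these and mass 426 and 9 at the stricter p. Erased differences (10) became 55, 32, 29, 3, 19 and 5 in the same order. Reversed ones (4) became 7 with the stricter filter and 0 with own fits (66 at an unadjusted p under 0.05 in both comparisons), without the muscle RNA arrays, at the stricter p and at 2-fold. Gained ones (2) became 25, 7, 1, 0 and 8 under the stricter filter, quantile scaling, weights, no muscle RNA arrays, and these and mass 426. The share of normal differences with the same sign (88.5%) was 85.1% with the stricter filter, 81.9% with own fits, 83.2% with weights, 91% without the muscle RNA arrays, 91.9% at the stricter p and 91.3% at 2-fold.

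With the animal as a replicate block (consensus correlation 0.40), normal calls were 2670, calls on the change 145, kept 527, erased 97, reversed 17 and gained 20, with the same sign in 83.6%.

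Leaving out 1 array at a time, flox/flox calls ranged from 638 to 2364, normal calls from 543 to 1565, calls on the change from 10 to 372, kept from 200 to 682, erased from 4 to 202, reversed from 1 to 24, gained from 2 to 111 and the same-sign share from 76.2% to 92.5%. The highest values for the change, erased, reversed and gained, and the lowest share, came without mass 510, and the most flox/flox calls without mass 412. Of the values of the 92 named genes, 1765 kept direction and side of the threshold, 314 lost and 8 gained a call, and Cdh3 (-0.30) turned to 0.20 without mass 426 and ranged from -0.71 to 0.20 over single arrays left out, never called. The cause of these shifts was not tested. Mass 426 was left out together with the muscle RNA arrays after seeing the data.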
